A study of Caenorhabditis elegans with 22 samples.

Results

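This account covers 10 Argonaute genes of *C. elegans*, out of 20392 genes counted in every library. They were chosen by name, with earlier results of these data known, and matched to their WormBase identifiers: *prg-1* (WBGene00004178), *ppw-1* (WBGene00004093), *wago-1* (WBGene00011061), *wago-4* (WBGene00010263), *csr-1* (WBGene00017641), *hrde-1* (WBGene00007624), *nrde-3* (WBGene00019862), *ergo-1* (WBGene00019971), *vsra-1* (WBGene00007297) and *alg-1* (WBGene00000105). All 10 were in the tables, and all 10 passed the filter on low counts in every comparison. In the later WBcel235 annotation, *prg-1*, *ppw-1*, *wago-1* and *vsra-1* lie on chromosome I and the other 6 on chromosomes II, III, IV, V and X, with *nrde-3* and *alg-1* both on X.

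Argonaute proteins hold a small RNA and use it to find complementary transcripts, which are then silenced or, in some cases, protected. In worms the germline uses several of them in series: the Piwi protein PRG-1 carries piRNAs, and the worm-specific Argonautes (WAGO proteins) carry secondary small RNAs that RNA-dependent RNA polymerases make on the targeted transcript. WAGO-1 and WAGO-4 act in and near germ granules, HRDE-1 carries small RNAs into germ cell nuclei and is needed for silencing to be inherited, PPW-1 is needed for the germline response to double-stranded RNA, and CSR-1 binds small RNAs that match genes expressed in the germline and is essential for fertility. NRDE-3 does the nuclear work in somatic cells, ERGO-1 binds primary small RNAs of the endogenous RNAi pathway, ALG-1 is a microRNA Argonaute of somatic tissue, and VSRA-1 is an Argonaute named for its varied small RNA partners. MET-2 and SET-25 are methyltransferases that place the silencing mark on lysine 9 of histone H3 (H3K9me).

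RNA was measured in cells sorted from L3 larvae, with 2 libraries, labelled as biological replicates, for each of 11 groups. Body wall muscle came from *met-2(n4256)*, *set-25(n5021)*, *met-2 set-25* double mutant and N2 (Bristol wild type) larvae, sorted by the red *myo-3*p::RFP reporter that all of these strains carry, and non-muscle cells of N2 were kept as well. Seam cells, which lie in the lateral epidermis, came from larvae of these genotypes, sorted as positive for both SCM::GFP and AJM-1::mCherry. In the *met-2*::degron strain, endogenous *met-2* carries a degron tag and TIR1 is driven in all cells by the *eft-3* promoter; muscle was taken after growth with auxin from L1 to L3 or without auxin, and the study's general gate for muscle is the *myo-3*p::RFP reporter, which the strain's listed genotype does not name. The sort separates cells by a reporter, and in bulk RNA fewer cells of a type and less RNA per cell cannot be told apart.

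The library totals were 12096374 to 16416460 counts in muscle genotypes, 12415005 and 14893576 in non-muscle cells, 18114744 to 24752059 in seam cells and 11883702 to 24355743 in degron muscle. Of the targeted genes, *met-2* was called lower in *met-2* seam cells, and neither was called in any other comparison. All 15 body wall muscle markers exceeded 1 CPM (counts scaled to a common library total) in every muscle and degron library, and all 12 seam and hypodermis markers did so in every seam cell library. The body wall muscle markers summed to 9864 to 13497 CPM in seam cells, against 174475 to 182585 CPM in N2 muscle. In N2 non-muscle cells these markers summed to 33064 to 41202 CPM. Of 27 germline markers, 27 exceeded 1 CPM in both N2 non-muscle libraries and 11 to 13 in N2 muscle. The libraries without auxin differed in summed germline marker level, at 153 CPM in the first and 316 CPM in the second. Marker sums of other cell types were higher in degron muscle without auxin than in N2 muscle. Seam and hypodermis markers summed to 65.6 to 75.2 CPM, against 5.51 to 12.4 CPM. Intestinal markers summed to 318 to 437 CPM, against 87.1 to 92.3 CPM. In these degron libraries 25 to 26 germline markers exceeded 1 CPM. The part of these cell types in the degron results was not tested. For 3 members, neighbouring or related genes limit what the counts say. *prg-1* and *ergo-1* overlap D2030.12 and *pei-2* on the opposite strand (0 to 21.6 and 0.32 to 28.2 CPM), and the sources used here do not state that the kit keeps strand. *ppw-1* has a close relative, *wago-6* (*sago-2*), and reads that matched both were not counted.

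The first comparison asked at what level each Argonaute gene is transcribed in wild-type tissues. In N2 muscle *prg-1* led on the scale of reads per kilobase and library depth (RPKM), followed by *alg-1* and *ergo-1*, and the other 7 members were low. The level of *prg-1* was 20.9 ± 3.05 RPKM (SD, n = 2), that of *alg-1* 12.2 ± 3.08 and that of *ergo-1* 11.7 ± 0.596. The last pair overlapped between libraries. The low members ran from *vsra-1* at 2.17 ± 0.264 RPKM through *wago-1*, *nrde-3*, *csr-1*, *ppw-1* and *hrde-1* to *wago-4* at 0.147 ± 0.176, and each of them overlapped the next in that order except *hrde-1* and *wago-4*. N2 seam cells had a different order. *ergo-1* (22.8 ± 5.41 RPKM), *vsra-1* (21.9 ± 0.00488) and *nrde-3* (21.1 ± 1.87) overlapped at the top, *prg-1* (15.8 ± 1.69) and *alg-1* (7.32 ± 0.819) followed, and the germline Argonautes *hrde-1*, *wago-1*, *ppw-1*, *csr-1* and *wago-4* lay between 2.41 and 0.429 RPKM. In N2 non-muscle cells *prg-1* (118 ± 32.8 RPKM), *wago-1* (94.9 ± 23.8) and *csr-1* (93.2 ± 11.6) overlapped at the top, *hrde-1* (57.1 ± 14.8) came next, and *vsra-1* (3.35 ± 0.713) was last.

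**Figure D1:**
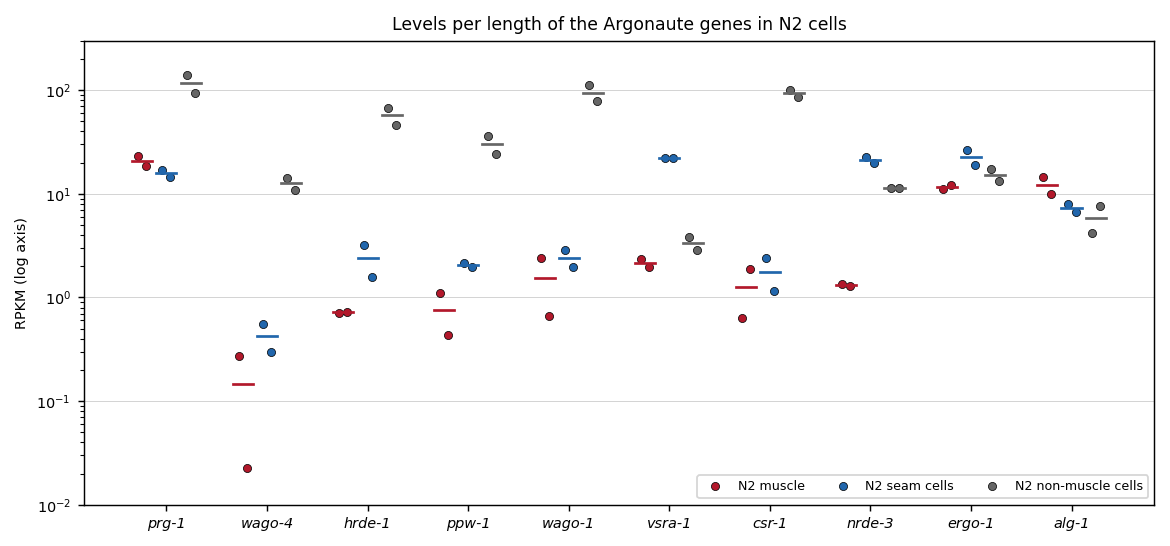
Levels of the 10 Argonaute genes in N2 muscle (red), N2 seam cells (blue) and N2 non-muscle cells (grey), in RPKM on a log axis. Each point is a library and each bar the mean of 2. In muscle *wago-4* was lowest at 0.147 RPKM and in non-muscle cells *prg-1* was highest at 118 RPKM.

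Relative to N2 non-muscle cells, 7 of the 10 members were called lower in N2 muscle and 1 higher. A gene was called at an adjusted p under 0.01 in edgeR's quasi-likelihood test and a log2FC of more than 2-fold, the difference between group means of log2(scaled count + 8). Of the 12107 genes tested, 23.4% were called lower and 9.17% higher. Germline Argonautes were among those called lower. *hrde-1* had 2.52 and 2.57 CPM in muscle, against 239 and 165 CPM in non-muscle cells (fitted log2 change ± standard error, SE, -4.80 ± 0.254, edgeR adjusted p 4.09e-05). *csr-1* had 2.24 and 6.72 CPM in muscle, against 360.2 and 302 CPM in non-muscle cells (-4.72 ± 0.449, adjusted p 0.000294). *wago-1* had 7.34 and 2.04 CPM in muscle, against 341 and 239 CPM in non-muscle cells (-4.42 ± 0.541, adjusted p 0.000876). In these 3 genes both muscle libraries lay far below both non-muscle libraries. The share of all genes that lie apart in this way was not counted.

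*wago-4* was at 13 and 1 counts in the muscle libraries, or 0.908 and 0.0755 CPM, against 47.9 and 36.3 CPM in non-muscle cells (-4.86 ± 0.802, adjusted p 0.003). *ppw-1* had 3.28 and 1.28 CPM in muscle, against 108 and 72.7 CPM in non-muscle cells (-3.77 ± 0.473, adjusted p 0.000965). *prg-1* was the germline member with the smallest difference, 61.5 and 49.97 CPM in muscle, against 377 and 253 CPM in non-muscle cells (-0.98 ± 0.221, adjusted p 0.00956). *nrde-3*, the somatic nuclear Argonaute, had 4.61 and 4.45 CPM in muscle, against 39.5 and 38.8 CPM in non-muscle cells (-1.61 ± 0.322, adjusted p 0.00632). The microRNA Argonaute *alg-1* was the member called higher, at 71.5 and 49.8 CPM in muscle, against 20.6 and 37.6 CPM in non-muscle cells (2.56 ± 0.371, adjusted p 0.00178).

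The scaling matters in this comparison, since the median log2FC of all genes was -1.73 and their median fitted change -0.57. *ergo-1* lay lower in muscle by CPM (41.2 and 44.3, against 63.7 and 48.2 CPM in non-muscle cells) but had a fitted change of 1.12 ± 0.194, which reversed to -0.39 on library totals, and it was not called. Leaving out single libraries ended the calls of 3 members. *nrde-3* lost its call without any 1 of the 4 libraries (adjusted p 0.0135 to 0.045). *prg-1* lost it without N2 muscle replicate 1 or 2 or non-muscle replicate 1, with fitted changes of -1.16, -0.83 and -0.69. Its fitted change over all libraries, -0.98, was under 2-fold, so the call was also lost with the fitted change for the fold rule. *alg-1* was not called without N2 muscle replicate 1 (0.0128) or without non-muscle replicate 1, where its log2FC missed the 2-fold rule, or on library totals (0.0342). Of 27 germline markers 23 were called lower in muscle, with a summed level of 73.97 to 79.6 CPM, against 3172 to 4261 CPM in non-muscle cells.

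The question for the mutants was which Argonaute genes respond in muscle when MET-2, SET-25 or both are lost. In *met-2* muscle 6 of the 10 members rose: *prg-1*, *ppw-1*, *wago-1*, *wago-4*, *hrde-1* and *vsra-1*. The same 6 rose in *met-2 set-25* muscle against N2, and again against *set-25* muscle. Of all 9167 genes tested, 2.17%, 2.36% and 2.13% were called higher in these comparisons, and 0.0655%, 0.207% and 0.153% lower. The median log2FC of the 10 members was 3.42 in *met-2* muscle, beside 0.01 for all genes tested. Since the members were chosen with earlier results of these data known, these shares and medians are a description. *csr-1*, *nrde-3*, *ergo-1* and *alg-1* were not called in any of the 5 muscle comparisons, and none of their 20 p-values was under 0.05 before adjustment (adjusted p 0.358 to 1). These comparisons share libraries, those of N2 in both comparisons with N2 and those of the double mutant in both of its own.

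**Figure D2:**
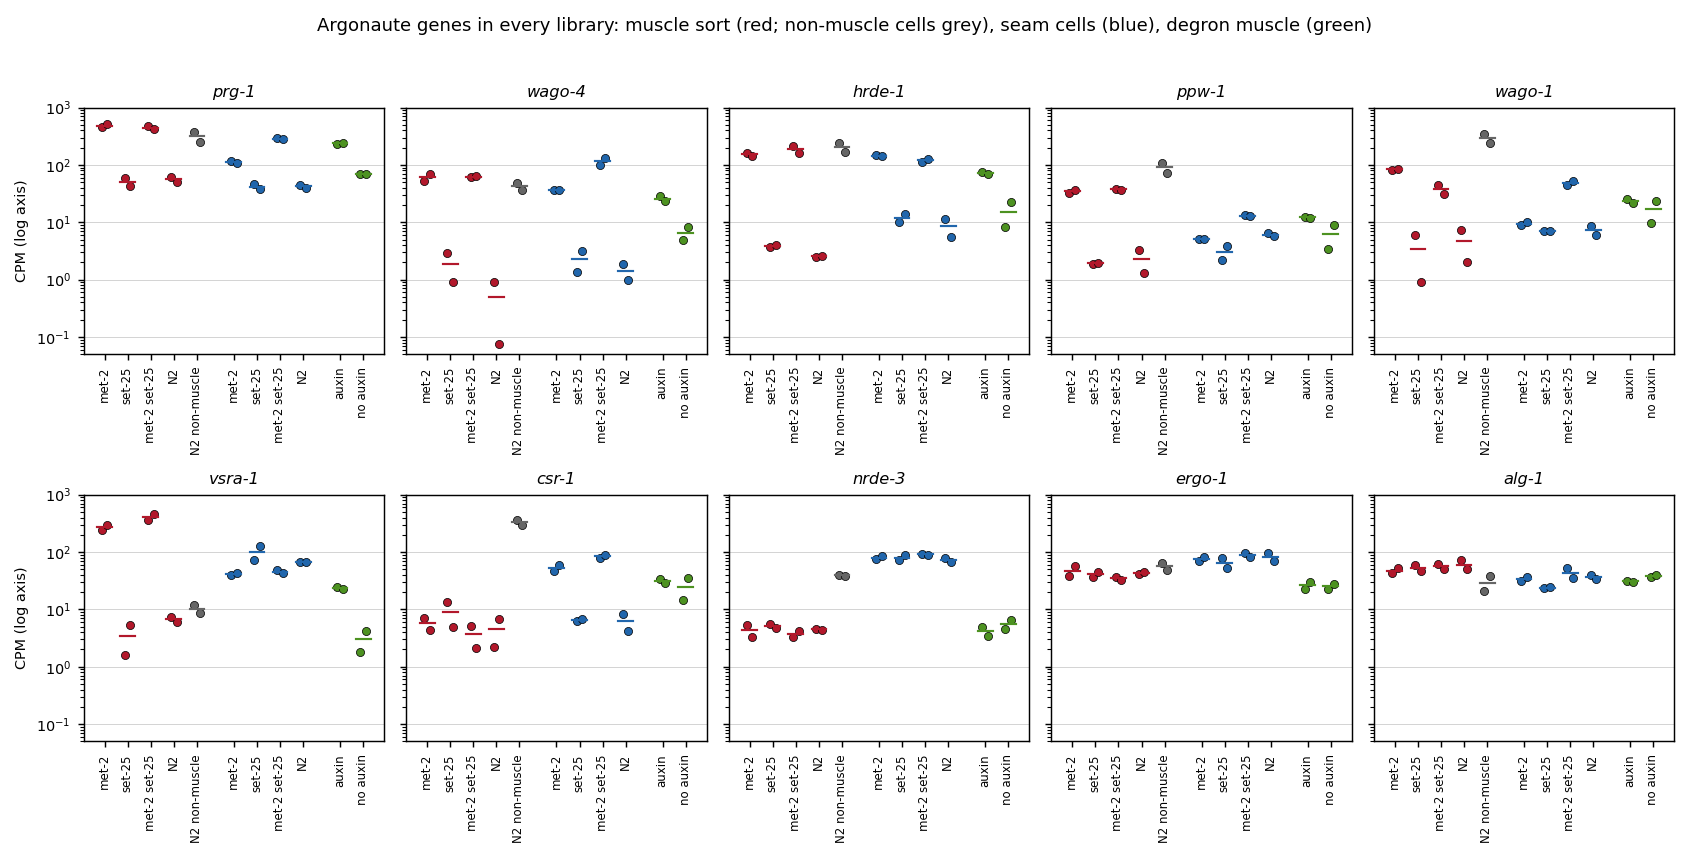
CPM of the 10 Argonaute genes in all 22 libraries, on a log axis. Points are libraries and bars group means, in muscle genotypes (red), N2 non-muscle cells (grey), seam cells (blue) and degron muscle (green). For *hrde-1* the *met-2* and double mutant muscle libraries lie between 145 and 214 CPM and the *set-25* and N2 muscle libraries between 2.52 and 4.02 CPM.

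*hrde-1*, the nuclear Argonaute of inheritance, separated the genotypes without overlap. It had 160.1 and 145 CPM in *met-2* muscle and 214 and 163 CPM in double mutant muscle, against 3.64 and 4.02 CPM in *set-25* and 2.52 and 2.57 CPM in N2 muscle. Every library of a *met-2* mutant genotype lay above every *set-25* and N2 library. In edgeR the log2 change was 5.88 ± 0.26 in *met-2* against N2 (edgeR adjusted p 9.81e-08) and 6.27 ± 0.263 in the double mutant against N2 (adjusted p 5.48e-08).

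*wago-4*, which acts with inherited small RNAs, had 52.4 and 69.4 CPM in *met-2* muscle and 60.9 and 63.1 CPM in double mutant muscle, against 2.89 and 0.914 CPM in *set-25* and 0.908 and 0.0755 CPM in N2 muscle. The N2 values rest on 13 and 1 counts, so the size of the change is less certain than its direction. Its fitted log2 change was 6.86 ± 0.562 in *met-2* (adjusted p 1.34e-05), where the gene ranked 10th of 9167 by log2FC, and 6.98 ± 0.563 in the double mutant (adjusted p 9.72e-06).

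*prg-1*, the Piwi gene, was already transcribed in N2 muscle and rose further. It had 454 and 516 CPM in *met-2* and 468 and 425 CPM in double mutant muscle, against 58.4 and 42.2 CPM in *set-25* and 61.5 and 49.97 CPM in N2 muscle. The fit gave a log2 change of 3.09 ± 0.193 in *met-2* (adjusted p 1.45e-06) and 3.06 ± 0.193 in the double mutant (adjusted p 1.36e-06). It had the smallest log2FC of the called members in *met-2* muscle and the highest level among all 10, at 182 ± 16.4 RPKM.

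*vsra-1* had 240.2 and 299 CPM in *met-2* muscle and 368 and 460.3 CPM in double mutant muscle, against 1.57 and 5.36 CPM in *set-25* and 7.27 and 6.11 CPM in N2 muscle. Fitted in edgeR, the log2 change was 5.30 ± 0.434 in *met-2* (adjusted p 1.34e-05) and 6.02 ± 0.446 in the double mutant (adjusted p 4.69e-06). Per length it was the second most abundant member in both mutants, at 87.5 ± 13.5 and 134 ± 21.2 RPKM. In N2 non-muscle cells it had 11.9 and 8.78 CPM, where the means of the other rising members ran from 42.1 CPM (*wago-4*) to 315 CPM (*prg-1*).

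*ppw-1*, the gene of the germline response to double-stranded RNA, had 32.7 and 36.9 CPM in *met-2* muscle and 38.4 and 36.8 CPM in double mutant muscle, against 1.901 and 1.95 CPM in *set-25* and 3.28 and 1.28 CPM in N2 muscle. In edgeR the log2 change was 3.89 ± 0.356 in *met-2* (adjusted p 3.24e-05) and 4.09 ± 0.357 in the double mutant (adjusted p 1.96e-05). Both mutant libraries of each genotype lay above every *set-25* and N2 library.

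*wago-1*, the germ granule Argonaute, was the least certain of the 6. It had 82.9 and 83.8 CPM in *met-2* muscle and 43.8 and 31.03 CPM in double mutant muscle, against 5.95 and 0.914 CPM in *set-25* and 7.34 and 2.04 CPM in N2 muscle. Its fitted log2 change was 4.13 ± 0.604 in *met-2* (adjusted p 0.00157) and 3.05 ± 0.586 in the double mutant (adjusted p 0.00942). The *met-2* call was lost without N2 muscle replicate 2 (adjusted p 0.0122). The double mutant call was lost without N2 muscle replicate 2 (0.0692) or either double mutant library (0.0308 and 0.0121), on library totals (0.0198) and in DESeq2 (0.0253), and its call against *set-25* (adjusted p 0.00478) was lost without double mutant replicate 1 (0.0134) or *set-25* replicate 2 (0.013), on library totals (0.01004) and with the compared groups alone (0.0264).

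In *set-25* muscle 0 of the 10 members were called by edgeR or DESeq2, and *wago-4* and *hrde-1* had p-values under 0.05 before adjustment (smallest adjusted p 0.742). No gene of the 9167 was called there, while 308 were higher and 210 lower with an edgeR p under 0.05 before adjustment. With the double mutant set against *met-2* muscle, 0 members were called either way by edgeR or DESeq2, again with 0 of 9167 genes called, and 0 members had a p under 0.05 before adjustment. The members that differed most in that comparison were *wago-1*, at 43.8 and 31.03 CPM in the double mutant, against 82.9 and 83.8 CPM in the single mutant (edgeR fit -1.08 ± 0.52 in log2, adjusted p 0.71), and *vsra-1*, at 368 and 460.3 CPM, against 240.2 and 299 CPM (0.72 ± 0.351, adjusted p 0.716).

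**Figure D3:**
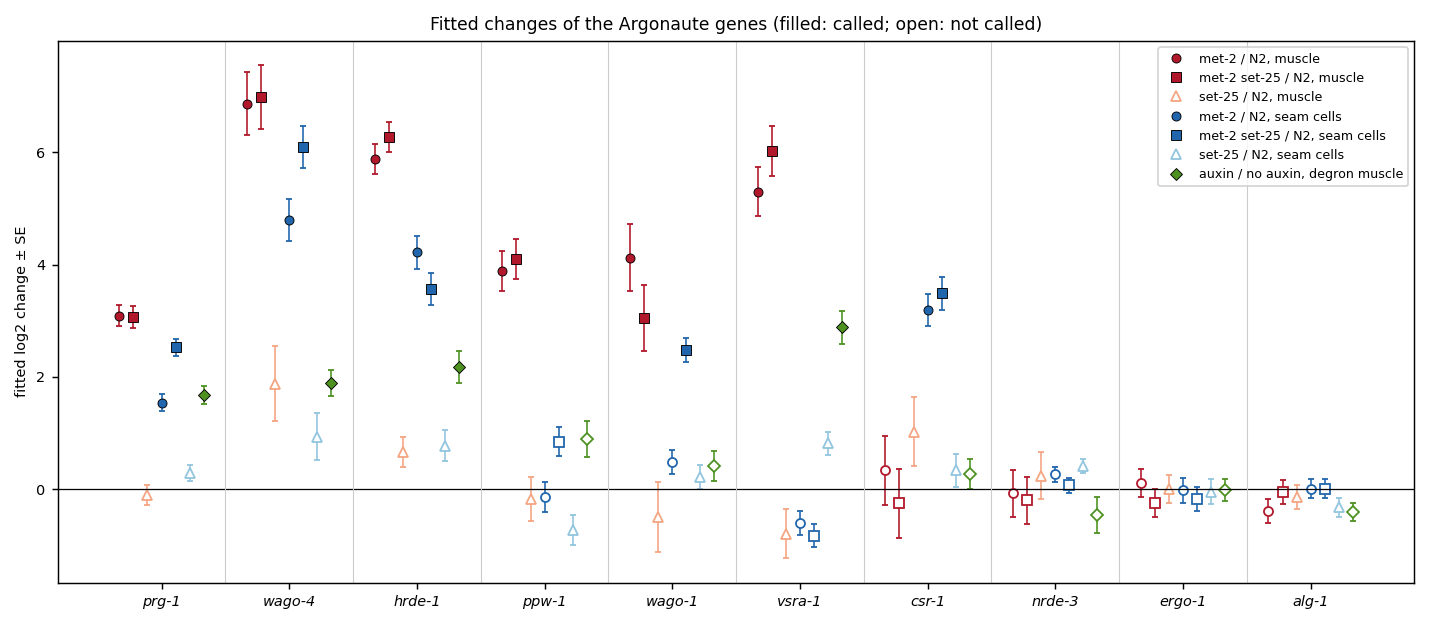
Fitted log2 change ± SE from edgeR for each Argonaute gene in 7 comparisons with N2 or with no auxin. Filled symbols were called and open symbols were not. In muscle (red) 6 genes were called in *met-2* and the double mutant and 0 in *set-25*. *csr-1* was called in the seam cells of both mutants (blue), and *nrde-3*, *ergo-1* and *alg-1* were called in none of the 7.

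The members that were not called are given by their range over the 8 muscle genotype libraries. The somatic nuclear Argonaute *nrde-3* had 3.31 to 5.46 CPM, the endogenous RNAi gene *ergo-1* 32.7 to 57.5 CPM and the microRNA gene *alg-1* 42.8 to 71.5 CPM. *csr-1* had 2.09 to 13.4 CPM, with its highest value in a *set-25* library.

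Germline markers moved with these members. The summed level of the 27 germline markers was 2095 to 2111 CPM in *met-2* muscle and 2252 to 2256 CPM in the double mutant, against 80.6 to 149.8 CPM in *set-25* and 73.97 to 79.6 CPM in N2 muscle. Most of that sum was *glh-1*, a germ granule helicase; the other 26 genes summed to 287 to 337 CPM in *met-2*, 283 to 311 CPM in the double mutant and 50.02 to 59.2 CPM in N2 muscle. In each mutant 9 of the 23 germline markers tested rose (*pgl-1*, *pgl-3*, *glh-1*, *gld-1*, *him-3*, *htp-1*, *htp-3*, *syp-1* and *rec-8*), and 0 markers of body wall muscle, neurons, intestine, pharynx, glia or seam cells were called. The germline markers *glh-4*, *nos-2*, *mex-3*, *oma-2*, *spn-4* and *pos-1* stayed under 1 CPM in all 4 of these mutant libraries, while the lower of the N2 non-muscle libraries had between 1.88 CPM (*nos-2*) and 70.5 CPM (*glh-4*). Beyond these measurements the part of germ cells in the result was not tested.

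The mixture of Argonaute transcripts in mutant muscle was also set beside that of N2 non-muscle cells in the same table, as a description with no test. Ratios of CPM between muscle and non-muscle cells move with the scaling, so each member was taken relative to *prg-1* within its own library. *wago-4* had 0.115 and 0.135 of the *prg-1* CPM in *met-2* muscle and 0.13 and 0.148 in the double mutant, against 0.127 and 0.144 in non-muscle cells, and these ranges overlapped. *hrde-1* had 0.353 and 0.282 in *met-2* and 0.458 and 0.385 in the double mutant, against 0.634 and 0.653 in non-muscle cells.

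Other members stood further from their non-muscle ratio. *ppw-1* had 0.0715 to 0.0866 over the *met-2* and double mutant libraries, against 0.286 and 0.287 in non-muscle cells, and *wago-1* had 0.073 to 0.183, against 0.906 and 0.945. *csr-1* had 0.0159 and 0.00837 in *met-2* and 0.0112 and 0.00493 in the double mutant, against 0.956 and 1.19 in non-muscle cells. *vsra-1* lay above its non-muscle ratio, with 0.529 and 0.58 in *met-2* and 0.785 and 1.08 in the double mutant, against 0.0315 and 0.0347. Among the members that did not rise, the *nrde-3* ratio was 0.00643 to 0.012 in the mutant libraries, against 0.105 and 0.154 in non-muscle cells. The *ergo-1* ratio was 0.0769 to 0.112, against 0.169 and 0.191, and that of *alg-1* overlapped (0.0944 to 0.131 against 0.0547 and 0.149). Since *prg-1* itself rose in these mutants, the ratio of a gene with unchanged CPM falls. In N2 muscle the ratios were 0.67 and 0.887 for *ergo-1*, 0.075 and 0.0891 for *nrde-3* and 1.16 and 0.997 for *alg-1*. Those of *csr-1* were 0.0364 and 0.134.

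The question was also put to seam cells. In *met-2* seam cells 4 members rose (*prg-1*, *wago-4*, *csr-1* and *hrde-1*), and *wago-1* joined them in the double mutant. Of 12591 genes tested, 2.08% and 2.16% were called higher in these comparisons, and 3.11% and 0.723% lower. The median log2FC of the 10 members was 0.25 in *met-2* and 1.87 in the double mutant, beside -0.14 and 0.26 for all genes. *csr-1*, which did not rise in muscle, was among the risers here, and *vsra-1*, which did, was not. *nrde-3*, *ergo-1* and *alg-1* were called in none of the 5 seam cell comparisons, at 68.3 to 92.6, 52.7 to 97.6 and 23.5 to 52.4 CPM over the 8 libraries.

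*hrde-1* had 149 and 143 CPM in *met-2* seam cells and 113 and 127 CPM in *met-2 set-25*, against 9.97 and 13.99 CPM in *set-25* and 11.4 and 5.63 CPM in N2. The fit gave a log2 change of 4.22 ± 0.292 in *met-2* (edgeR adjusted p 8.42e-05) and 3.57 ± 0.285 in the double mutant (adjusted p 0.000167). Without N2 replicate 1 it was also called higher in *set-25* seam cells (1.34, adjusted p 0.00731), where with all libraries it was not (adjusted p 0.0631).

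*csr-1*, the Argonaute of germline-expressed targets, had 46.8 and 59.6 CPM in *met-2* seam cells and 79.4 and 88.4 CPM in *met-2 set-25*, against 6.27 and 6.803 CPM in *set-25* and 8.48 and 4.14 CPM in N2. Fitted in edgeR, the log2 change was 3.20 ± 0.284 in *met-2* (adjusted p 0.00032) and 3.49 ± 0.286 in the double mutant (adjusted p 0.000195). The gene *frpr-10*, which overlaps it on the same strand, had at most 7 counts in any library.

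*wago-4* had 36.9 and 37.2 CPM in *met-2* seam cells and 101 and 133 CPM in *met-2 set-25*, against 1.38 and 3.19 CPM in *set-25* and 1.87 and 0.994 CPM in N2. In edgeR the log2 change was 4.79 ± 0.37 in *met-2* (adjusted p 0.000147) and 6.09 ± 0.379 in the double mutant (adjusted p 4.11e-05), where the gene ranked first of 12591 by log2FC. The double mutant was higher than *met-2* in both libraries, but the difference had an adjusted p of 0.0112 (1.30 ± 0.285) and was not called. It was called in DESeq2 (adjusted p 0.000162), and with only those groups fitted (0.0018).

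*prg-1* had 116 and 109 CPM in *met-2* seam cells and 290.4 and 285 CPM in *met-2 set-25*, against 46.5 and 37.4 CPM in *set-25* and 45.4 and 38.97 CPM in N2. Its fitted log2 change was 1.54 ± 0.149 in *met-2* (adjusted p 0.00045) and 2.52 ± 0.153 in the double mutant (adjusted p 3.74e-05). The double mutant exceeded *met-2* (0.98 ± 0.145, adjusted p 0.00202, in a comparison where 6.14% of genes were called higher and 2.3% lower, around a median log2FC of 0.43), and this call was lost without any 1 of the 4 libraries (adjusted p 0.0128 to 0.0295).

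*wago-1* differed between the *met-2* and the double mutant. It had 44.8 and 52.6 CPM in *met-2 set-25* seam cells, against 8.92 and 9.95 CPM in *met-2*, 7.05 and 6.99 CPM in *set-25* and 8.76 and 5.96 CPM in N2. The double mutant rose against N2 (2.48 ± 0.215, adjusted p 0.000266) and against *met-2* (1.999 ± 0.211, adjusted p 0.000578), while *met-2* against N2 was not called (0.49 ± 0.214, adjusted p 0.172). *ppw-1* was also highest in the double mutant, at 13.3 and 12.9 CPM in the double mutant, against 5.11 and 5.03 CPM in *met-2* and 6.37 and 5.85 CPM in N2, but neither difference was called (0.85 ± 0.261 against N2, adjusted p 0.0723, and 0.99 ± 0.263 against *met-2*, adjusted p 0.0244).

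*vsra-1* had lower values in the mutant seam cells, 39.4 and 42.3 CPM in *met-2* and 47.9 and 42.8 CPM in *met-2 set-25*, against 71.6 and 125 CPM in *set-25* and 67.6 and 67.6 CPM in N2. Every *met-2* and double mutant library lay below both N2 libraries, without a call (-0.60 ± 0.207, adjusted p 0.0916, and -0.83 ± 0.207, adjusted p 0.036). Against *set-25* the double mutant was called lower (-1.65 ± 0.21, adjusted p 0.000345, with 1.8% of genes called lower), although its log2FC missed the 2-fold rule without double mutant replicate 2 or without *set-25* replicate 2.

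Against *set-25* seam cells, 6 members were called higher in the double mutant (*prg-1*, *ppw-1*, *wago-1*, *wago-4*, *csr-1* and *hrde-1*), in a comparison where 19.5% of all genes were called higher and the median over all genes was 0.65 in log2FC. The fitted changes of these 6 were 1.58 to 5.15. Detection also differed between the groups. Genes with at least 10 counts numbered 9778 and 9810 in *set-25* seam cells, against 12898 and 12118 in the double mutant. In N2 seam cells they numbered 11749 and 10927. The part of detection in the result was not tested. Markers of other cell types moved there too, with 11 of 14 body wall muscle, 7 of 10 neuronal and 5 of 9 intestinal markers called higher, and their part in the result was not tested. *ppw-1* was not called without double mutant replicate 1 (adjusted p 0.01005) or with the compared groups alone (0.0129). In *set-25* against N2, 0 of 10 members were called by edgeR or DESeq2, and 4 had a p under 0.05 before adjustment (smallest adjusted p 0.0168, *vsra-1*). Of all 12591 genes, 2295 were higher and 3184 lower with an edgeR p under 0.05 before adjustment in that comparison. Called genes were 0.342% higher and 10.3% lower.

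Germline markers again moved with the members, at lower levels than in muscle. Their summed level was 280 to 289 CPM in *met-2* and 591 to 629 CPM in *met-2 set-25* seam cells, against 119.2 to 163 CPM in *set-25* and 119.8 to 144 CPM in N2. Of 26 tested, 6 were called higher in each mutant (*pgl-1*, *glh-1*, *mex-5*, *him-3*, *syp-1* and *rec-8*), and their part in the result was not tested. The summed level of the 12 seam and hypodermis markers was 1134 to 1207 CPM in these mutants, against 1017 to 1158 CPM in N2. Intestinal markers summed to 422 to 448 CPM in the double mutant, against 81.2 to 173 CPM in *met-2* and 138 to 214 CPM in N2, and neuronal markers to 1266 to 1455 CPM, against 1205 to 1299 CPM and 948 to 998 CPM. Against N2, 1 neuronal marker was called higher in the double mutant. Against *met-2*, where *prg-1* and *wago-1* were called, 2 germline, 2 intestinal, 1 neuronal, 1 body wall muscle and 1 glial marker were called higher, and 1 seam and 1 glial marker lower. The part of these cell types in the result was not tested.

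Whether an effect differed between the tissues was tested as an interaction over 16 libraries, at an adjusted p under 0.01. Strain, sort and experiment follow the tissue in this fit. For *met-2* against N2, 3 members had a larger change in muscle: *vsra-1* (5.85 ± 0.542, adjusted p 8.61e-05), *ppw-1* (3.98 ± 0.475, adjusted p 0.00058) and *prg-1* (1.49 ± 0.23, adjusted p 0.00419), where 0.504% of 12887 genes were called (0.404% larger in muscle, 0.101% larger in seam cells). For *met-2 set-25* the called members were *vsra-1* (6.79 ± 0.55, adjusted p 4.26e-05), *ppw-1* (3.19 ± 0.466, adjusted p 0.00314) and *hrde-1* (2.64 ± 0.39, adjusted p 0.0033), with 0.497% of genes called (0.396% and 0.101%). *csr-1* had differences of the opposite sign, -2.92 ± 0.735 and -3.77 ± 0.75, with adjusted p-values of 0.0564 and 0.0215, so a larger change in seam cells was not called; for the double mutant it was called without N2 muscle replicate 1 (adjusted p 0.00974). For *wago-4* the *met-2* difference was 2.02 ± 0.801 (adjusted p 0.247) and for *hrde-1* 1.60 ± 0.39 (adjusted p 0.0502), neither of them called. *wago-1* had a *met-2* difference of 3.58 ± 0.727 (adjusted p 0.0244), which was called without N2 muscle replicate 1 (0.00822). No member had a called difference for *set-25* (0 of 10, with 1.79% of genes called, 1.54% and 0.248% by direction), and the smallest adjusted p was that of *vsra-1*, 0.0946, which was called without *set-25* muscle replicate 2 (difference -3.10, adjusted p 0.00238).

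**Figure D4:**
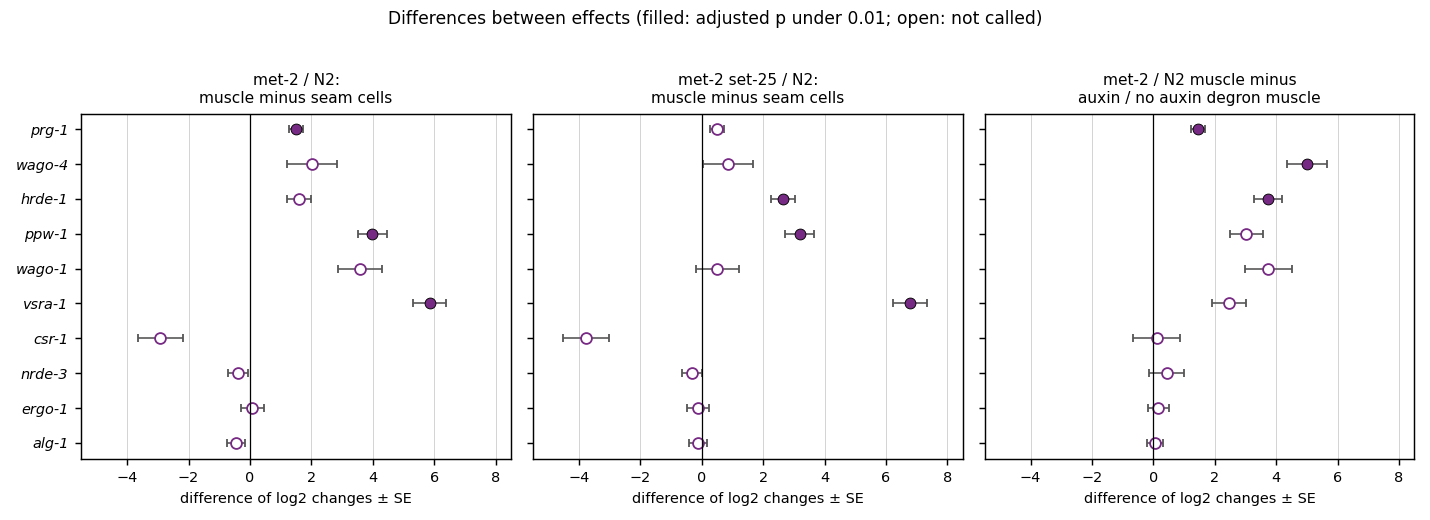
Difference between 2 effects ± SE, in log2 units, for each Argonaute gene. The left and middle panels give the muscle change minus the seam cell change, for *met-2* and for the double mutant, and the right panel the *met-2* change minus the auxin change in muscle. Filled points had an adjusted p under 0.01. *vsra-1* lies at 5.85 and 6.79 in the left and middle panels, and *csr-1* at -2.92 and -3.77 without a call.

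These interaction calls varied in how much they leaned on single libraries. The *vsra-1* calls for both genotypes and the *ppw-1* call for *met-2* were kept in all 13 alternatives run. The *prg-1* call was lost without either *met-2* muscle library, either seam cell library of *met-2* or N2, or N2 muscle replicate 2 (adjusted p 0.0127 to 0.0407). The *ppw-1* call for the double mutant was lost without any 1 of its libraries in either tissue or either N2 seam library (0.0113 to 0.0213), and that of *hrde-1* without double mutant muscle replicate 1, either double mutant seam library, either N2 muscle library or N2 seam replicate 1 (0.0111 to 0.022).

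The degron strain addressed what happens when MET-2 is removed during larval growth. With auxin 4 of the 10 members rose (*prg-1*, *wago-4*, *hrde-1* and *vsra-1*), where 0.913% of 11393 genes were called higher and 0.816% lower. The median log2FC of the 10 members was 0.83, beside 0.08 for all genes. All 4 are among the 6 that rose in *met-2* muscle.

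*vsra-1* had 25.05 and 22.4 CPM with auxin, against 1.83 and 4.26 CPM without (fitted log2 change 2.88 ± 0.289, edgeR adjusted p 2.52e-05). *hrde-1* had 74.6 and 69.9 CPM with auxin, against 8.23 and 22.4 CPM without (2.18 ± 0.285, adjusted p 0.000277), and was not called on library totals (0.021). *wago-4* had 28.2 and 23.4 CPM with auxin, against 4.85 and 8.28 CPM without (1.90 ± 0.23, adjusted p 0.000152).

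*prg-1* had 231 and 241 CPM with auxin, against 69.2 and 70.1 CPM without (1.68 ± 0.161, adjusted p 1.82e-05). Both auxin libraries lay above both libraries without auxin for each of these 4 genes. The same held for *ppw-1*, which was not called. With 2 libraries on each side such a separation is no test, and its share over all genes was not counted. *alg-1*, the microRNA Argonaute, had 31.4 and 30.04 CPM with auxin, against 37.1 and 39.2 CPM without, and was not called (adjusted p 0.308).

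The outcome for 3 other members depended on which library without auxin was kept. The second of these had the higher germline marker sum. *csr-1* had 33.7 and 28.4 CPM with auxin, against 14.7 and 34.7 CPM without. *wago-1* had 25.1 and 21.5 CPM with auxin, against 9.696 and 23.8 CPM without. *ppw-1* had 12.6 and 11.7 CPM with auxin, against 3.43 and 9.02 CPM without (0.90 ± 0.324, adjusted p 0.206). Without the second library the fitted changes were 0.90 for *csr-1*, 1.09 for *wago-1* and 1.65 for *ppw-1*. Without the first library they were -0.16 for *csr-1* and -0.033 for *wago-1*. The change of *ppw-1* stayed positive whichever library was left out (0.42 to 1.65). The summed germline marker level was 571 to 639 CPM with auxin, against 153 to 316 CPM without, and 4 of 26 germline markers tested were called higher; their part in the result was not tested.

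The *met-2* effect was set against the auxin effect in an interaction over 12 muscle libraries, in which strain and experiment follow the tag. The change was larger in the *met-2* mutant for *wago-4* (difference 5.00 ± 0.652, adjusted p 0.00107), *hrde-1* (3.74 ± 0.457, adjusted p 0.000795) and *prg-1* (1.45 ± 0.23, adjusted p 0.00507), where 0.523% of 11099 genes were called (0.505% larger and 0.018% smaller in the mutant). For *wago-1* (3.74 ± 0.763, adjusted p 0.0254), *ppw-1* (3.02 ± 0.54, adjusted p 0.0113) and *vsra-1* (2.45 ± 0.559, adjusted p 0.048) the difference pointed the same way without a call. The *prg-1* call was lost without any 1 of the 8 libraries compared (0.0116 to 0.0473) and on library totals (0.0186). *ppw-1* was called without N2 muscle replicate 1 (0.00713) or the first library without auxin (0.00212). The groups without MET-2 loss also started at different levels, *hrde-1* at 8.23 and 22.4 CPM in the degron strain without auxin and at 2.52 and 2.57 CPM in N2 muscle.

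Other Argonaute genes were examined from a list of 13, of which 10 were in the tables and 6 to 10 were tested in a comparison. *wago-6*, the relative of *ppw-1*, was the only one called in mutant muscle. It had 27.7 and 27.996 CPM in *met-2* and 28.5 and 31.6 CPM in *met-2 set-25*, against 1.49 and 1.218 CPM in *set-25* and 2.096 and 1.51 CPM in N2 (fitted log2 change 3.92 ± 0.293, adjusted p 7.08e-06, and 4.11 ± 0.295, adjusted p 3.88e-06). Its *met-2* change was larger in muscle than in seam cells by 4.04 ± 0.38 (adjusted p 8.61e-05), the same pattern as *ppw-1*.

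*wago-3* (*ppw-2*), a WAGO gene, rose in double mutant seam cells, with 49.5 and 64.2 CPM, against 4.26 and 4.97 CPM in *met-2* (3.26 ± 0.343, adjusted p 0.000578) and 8.06 and 3.53 CPM in N2 (3.05 ± 0.337, adjusted p 0.00103), and was not called in *met-2* against N2. The spermatogenesis Argonautes *alg-3* and *alg-4* and the WAGO gene *wago-10* were called lower in N2 muscle than in non-muscle cells, with *wago-3* and *wago-6*. *alg-3*, *alg-4* and *wago-10* had at most 1.45 CPM in *met-2* and double mutant muscle, against at least 37.2 CPM in N2 non-muscle cells. *alg-2*, the other somatic microRNA Argonaute, had 34.4 to 44.8 CPM across the 8 muscle genotype libraries and was not called in any comparison.

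Among 42 listed small RNA pathway genes other than Argonautes, 40 were in the tables. In *met-2* muscle 3 of 39 tested rose: *rrf-2*, a gene of the RNA-dependent RNA polymerase family (68.7 ± 5.08 CPM, against 10.4 ± 2.67 in N2, fitted log2 change 2.69 ± 0.3, adjusted p 0.000178), *ekl-1*, which encodes a partner of those polymerases (70.8 ± 17.7, against 18.7 ± 6.51, 1.89 ± 0.283, adjusted p 0.00183), and the nuclear RNAi factor *nrde-2* (86.4 ± 0.79, against 33.01 ± 8.15, 1.37 ± 0.234, adjusted p 0.00471). In the double mutant *rrf-2* and *ekl-1* rose (3.53 ± 0.308 and 2.89 ± 0.291). The medians of the 39 genes, 0.08 and 0.16 in log2FC, lay close to those of all genes tested, 0.01 and -0.06. The share called, 3 of 39, compares with 2.17% of all genes.

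*rrf-2* was called higher in every comparison that removed MET-2 from a wild-type background. In *met-2* seam cells it had 86.3 and 87.5 CPM, against 28.7 and 28.8 CPM in N2 (1.72 ± 0.122, adjusted p 9.2e-05), and in the double mutant 98.7 and 84.9 CPM (1.42 ± 0.121, adjusted p 0.00025). With auxin it had 17.5 and 27.2 CPM, against 5.95 and 7.45 CPM without (1.65 ± 0.249, adjusted p 0.000937). No other pathway gene of the 40 tested in seam cells and 39 in degron muscle was called higher in these 3 comparisons. The polymerase gene of the germline, *ego-1*, and *deps-1*, a germ granule gene, were among 6 of 39 called lower in N2 muscle than in non-muscle cells, where 23.4% of all genes were called lower (means of 2.28 CPM in muscle against 99.1 CPM in non-muscle cells, and of 0.465 against 97.3 CPM), and neither was called in mutant muscle or seam cells.

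Likeness of pattern was measured as Pearson's r of log2(CPM + 1) over all 22 libraries, among 11091 genes with a mean of at least 1 CPM. It is a description, with no test, and the libraries share genotype and tissue. *prg-1* was most like T05B9.1 and *pid-2* (both r = 0.97). *hrde-1* was most like *syp-1* (0.97), a synaptonemal complex gene, and Y48G10A.2 (0.96), and *wago-4* most like the same Y48G10A.2 (0.97) and *herd-1* (0.96). *ppw-1* was most like *wago-6* (0.995) and D2030.7 (0.96), and *wago-1* most like *bath-1* and Y110A2AR.1 (both 0.96). *csr-1* was most like Y54G9A.5 (0.95) and *syp-5* (0.94), *nrde-3* most like K02G10.5 and *lin-46* (both 0.99), and *ergo-1* most like *lin-59* and *vab-1* (both 0.96). *alg-1* had lower values, 0.85 with F46F2.5 and 0.83 with F17C11.12. *vsra-1* had its nearest gene in *rrf-2* at 0.84, followed by WBGene00018199 at 0.82. Among the members themselves *hrde-1* and *wago-4* were the closest pair (0.95), followed by *ppw-1* and *wago-1* (0.94).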

How the data were processed

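Smart-Seq2 libraries of sorted L3 cells were counted in 22 samples of 11 groups (the series text also names rRNA depletion of total RNA, so the library type is stated in more than 1 way). The deposited values are raw counts per gene, which the authors made with QuasR and hisat2 on ce10 from uniquely mapped reads over WS220 exons, in 3 tables. All count columns belonged to a sample (0 did not), and 94.1% of the 20392 identifiers had a name in the table of gene names used here. CPM is the count over the library total, and RPKM also uses the deposited gene width.

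Tests were run in R 4.3.3 with edgeR 4.0.16 (TMM scaling, filterByExpr, quasi-likelihood F test, Benjamini-Hochberg adjustment over all genes tested), in fits of 8 muscle, 8 seam cell, 4 degron and 4 N2 muscle and non-muscle libraries, and interactions over 16 and 12 libraries. A call needed an adjusted p under 0.01 and a log2FC over 2-fold with a pseudocount of 8, and interactions the p alone. SE is the fitted change over the square root of F. Fits were tested on simulated data. Alternatives were DESeq2 1.42.0 (also its size factors), library totals, no count filter, an adjusted p of 0.05, a pseudocount of 1, the fitted change for the fold rule, the compared groups alone, a replicate block and each library left out.

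The members and gene lists were chosen with earlier results of these data known. All 10 members are named, with other Argonaute genes that were called or stand beside a member, up to 4 called pathway genes per comparison with the largest log2FC, and the 2 most alike genes per member. Library totals were 11883702 to 24752059 counts, and 3 counts was the floor for a gene near 0. Since no molecular identifiers were used, reads may repeat a molecule, and the floor speaks of counting error alone. With 2 replicates per group, p-values weigh a change against a spread estimated over all groups of a fit and moderated across genes. That spread is between these samples alone. Tests across tables were made only in the interactions, and levels from different tables stand side by side with no test.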

Additional observations from a re-analysis of the deposited data

Results flagged for a closer look

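Each of 9 differences between effects passed its own test, an interaction in edgeR at an adjusted p under 0.01. Over all genes tested, 0.504% were called for *met-2* between the tissues, 0.497% for *met-2 set-25* and 0.523% for *met-2* against auxin. Both *prg-1* calls and the *met-2 set-25* calls of *ppw-1* and *hrde-1* were lost in some alternatives. The other calls were kept in every alternative run. Between muscle and seam cells, the *met-2* change was larger in muscle by 5.85 on the log2 scale for *vsra-1*, by 3.98 for *ppw-1* and by 1.49 for *prg-1*. The effects behind them were 5.24 in muscle and -0.61 in seam cells for *vsra-1*, 3.83 and -0.15 for *ppw-1*, and 3.03 and 1.54 for *prg-1*. The *met-2 set-25* change was larger in muscle by 6.79 for *vsra-1* (5.91 in muscle, -0.89 in seam cells), by 3.19 for *ppw-1* (3.98 and 0.79) and by 2.64 for *hrde-1* (6.16 and 3.52). Between the *met-2* mutant and auxin treatment in muscle, the mutant change was larger by 5.00 for *wago-4* (6.87 in the mutant, 1.87 with auxin), by 3.74 for *hrde-1* (5.88 and 2.15) and by 1.45 for *prg-1* (3.10 and 1.64).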

How the results depend on the processing

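Of 57 calls of a member in a comparison or interaction, 43 were kept in every alternative run and 14 were lost in at least 1. Those 43 include *prg-1*, *wago-4*, *hrde-1*, *vsra-1* and *ppw-1* in *met-2* and double mutant muscle against N2, and *prg-1*, *wago-4*, *csr-1* and *hrde-1* in the same seam cell comparisons. With auxin, 7 members were called higher in place of 4 without the second library without auxin, and 4 to 7 over all libraries left out. In double mutant seam cells set against *met-2*, 2 members called higher became 4 at an adjusted p of 0.05, 4 on library totals, 4 with no count filter, 1 with the fitted change for the fold rule, and 1 without any 1 of the compared libraries (range 1 to 1). In N2 muscle against non-muscle cells, 1 member called higher became 2 with the fitted change, 0 on library totals, and 0 to 1 without a library. With no count filter, 1 member was called higher in *set-25* muscle (*wago-4*, adjusted p 0.00749) and 1 lower in double mutant against *met-2* muscle (*wago-1*, 0.00981), in place of 0. In *set-25* seam cells the count was 0 to 1 without a library, and the 1 member lower in the double mutant against *set-25* seam cells was 0 to 1. Members with an interaction call numbered 6 in place of 3 for *met-2* against auxin at an adjusted p of 0.05 and with no filter, 7 in place of 3 for *met-2* with no filter, 1 to 3 in place of 3 for the double mutant without a library, and 1 in place of 0 for *set-25* with no filter (0 to 1 without a library). Effects that were not called reversed with auxin for *csr-1* (-0.16) and *wago-1* (-0.033) without the first library without auxin (ranges over the libraries left out -0.16 to 0.90 and -0.033 to 1.09), and for *ergo-1* in N2 muscle on library totals (-0.39). Leaving out a library leaves 1 sample in its group, which is assumed to vary like the other groups.

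The labels do not state whether same-numbered samples were prepared together. Deviations of same-numbered samples correlated at -0.10 to 0.07 in muscle, -0.08 to 0.15 in seam cells, -0.23 in degron muscle and 0.10 in N2 muscle and non-muscle cells. Such low values cannot show that the samples were unpaired. With the number as a block, the interaction calls of *hrde-1* in the double mutant (2.63, adjusted p 0.0148) and *prg-1* against auxin (1.46, 0.0242) were lost and no other member call changed, while over all genes the positive calls fell to 33 in place of 51 and to 32 in place of 56.

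Over all genes, counts moved with no count filter to 334 in place of 199 called higher in *met-2* muscle, 376 in place of 216 in the double mutant, 482 in place of 262 in *met-2* and 756 in place of 272 in double mutant seam cells, 172 in place of 104 with auxin, and 1792 in place of 773 in double mutant against *met-2* seam cells. DESeq2 called 446 higher in double mutant seam cells and the compared groups alone 177. In *set-25* muscle, where edgeR called 0 genes, 308 higher and 210 lower had a p under 0.05 before adjustment and DESeq2 called 3 and 5; for the double mutant against *met-2* muscle these were 363, 302, 17 and 12. Leaving out a library gave 51 to 379 genes higher in double mutant against *met-2* seam cells in place of 773 (51 without *met-2* replicate 2), 81 to 312 with auxin in place of 104 (312 without the second library without auxin), 122 to 146 in double mutant and 116 to 191 in *met-2* seam cells, and 1674 to 2149 lower in N2 muscle. On library totals 54 genes were higher with auxin, and 6374 lower in N2 muscle in place of 2838. Genes near the floor of 3 counts, as *wago-4* in N2 muscle, limit the size of a change more than its direction.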
